A study of Mus musculus with 6 samples.

Results

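Histone lysine methylation is written by methyltransferases (Kmt genes) and removed by demethylases (Kdm genes), and most of the transcripts of these enzymes in mouse embryonic stem cells (ESCs) moved by small amounts between 2 culture media. The genes described here were every row of the deposited tables whose symbol begins with Kdm and a digit from 1 to 8 or with Kmt and a digit from 2 to 5, except Kdm2b, Kdm5c, Kdm5d and Kdm6a. That rule, which uses the gene's name and no measured value, gave 24 of 53927 symbols: 14 demethylase genes, 8 methyltransferase genes, Kdm4dl, annotated as an unprocessed pseudogene, and Kdm6bos, an RNA antisense to Kdm6b.

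RNA-seq was done on 3 libraries of ESCs in BRD0705/PD03 medium and 3 libraries of ESCs in 2i medium, all labelled as genotype WT. The BRD0705/PD03 medium held 8 µM BRD0705, an inhibitor selective for the kinase GSK3 alpha, and 1 µM PD0325901, a MEK inhibitor, in serum-free N2B27. The 2i medium held 3 µM CHIR99021, which inhibits both forms of GSK3, and the same 1 µM PD0325901 in N2B27. The comparison addresses how transcripts differ between ESCs kept with the GSK3 alpha inhibitor and ESCs kept in 2i. The labels name the line E14, an established male line, whereas the growth protocol speaks of B6D2F1 ESCs that were derived over feeders, once in each medium, so a difference of medium and a difference of cell line or derivation cannot be told apart.

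The libraries went against a single male line. Uty, a Y-linked relative of a histone demethylase, stood at 83.3, 86.8 and 82.2 CPM (counts scaled by library size) in BRD0705/PD03 and at 2.73, 2.55 and 3.59 CPM in 2i, and of 717 X-linked genes tested 473 were lower in BRD0705/PD03. No 2i library can be set aside on this ground, since all of them showed it. All 24 genes described here are autosomal. The calls among them were the same 15, in the same directions, when genes of the sex chromosomes were left out. That check alters only the scaling and the set of genes tested. It cannot show whether a difference of sex or line bears on these calls, which was not tested. Library totals were 27825601 to 40790837 counts in BRD0705/PD03 and 16968959 to 51180228 in 2i. ESC markers were present in both media, with 10 markers summing to 3423 to 3549 CPM in BRD0705/PD03 and 3879 to 4163 CPM in 2i. Markers of feeder fibroblasts were higher in BRD0705/PD03 for 9 of 10 genes, with sums of 785, 1035 and 1171 CPM in BRD0705/PD03 against 465, 471 and 453 CPM in 2i, and none of the 10 was at 0. The part of fibroblast RNA in the results below was not tested. Summed endoderm markers were at 4.62 to 5.52 CPM in BRD0705/PD03 and 4.63 to 4.93 CPM in 2i, trophoblast markers at 42.9 to 45.7 CPM in BRD0705/PD03 and 39.2 to 44.4 CPM in 2i, and neural markers at 133 to 137 CPM in BRD0705/PD03 and 115 to 123 CPM in 2i. Such sums are set by their most abundant genes, and single markers moved further: Pax6, a neural factor, stood at 13.1 ± 0.242 CPM in BRD0705/PD03 and 0.363 ± 0.0969 CPM in 2i. Gata3, a trophoblast factor, stood at 0.390 ± 0.202 CPM in BRD0705/PD03 and 3.29 ± 0.394 CPM in 2i, and Lin28a, of the ESC list, at 381 ± 14.7 CPM in BRD0705/PD03 and 35.3 ± 1.07 CPM in 2i. Other markers of these lists went the other way. At an adjusted p below 0.05 in the edgeR test used below, 4 ESC markers were higher in BRD0705/PD03 and 5 lower. Neural markers numbered 2 higher and 2 lower, and the trophoblast and endoderm lists each had 1 higher and 1 lower. The part of these differences in the results below was not tested. In such bulk libraries, fewer cells of a type and less RNA per cell cannot be told apart.

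Methyl groups on lysines of histone H3 mark different states of chromatin: those on lysine K4 lie at active or poised promoters and enhancers, those on K9 and K27 at silent genes, and those on K36 over transcribed gene bodies. Demethylases of the LSD kind (Kdm1a and Kdm1b) use FAD, whereas the others carry a JmjC domain that needs iron and 2-oxoglutarate. Methyltransferases take the methyl group from S-adenosylmethionine. In mouse ESCs, removal of K9 methylation by Kdm3 and Kdm4 enzymes has been linked to the maintenance of pluripotency genes.

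Of the 24 genes, 21 passed the filter on low counts, and edgeR's quasi-likelihood test called 9 of them higher and 6 lower (adjusted p below 0.05), or 12 higher and 5 lower with upper-quartile scaling factors. Among all 20422 genes tested, 61.4% were called, 30.1% higher and 31.4% lower, and among autosomal protein-coding genes 68.7% were called, so the 71.4% called here is near the background. The changes were small: none of the 21 reached a fold of 2, whether called or not, while 21.2% of all genes tested were both called and changed by a fold of 2 or more. Their median absolute log2 fold change was 0.20, beside 0.40 over all genes tested and 0.37 over autosomal protein-coding genes. The signed median was 0.06, beside 0.00 over all genes. The groups did not overlap for 17 of the 21, beside 66.0% of all genes tested, with 10 of these genes higher (32.4% of all genes) and 7 lower (33.6%). On simulated data the test called unchanged genes more often than the threshold aims for, a limit that applies to the small called changes below. Every log2 fold change sets BRD0705/PD03 over 2i and is given with its standard error.

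**Figure D1:**
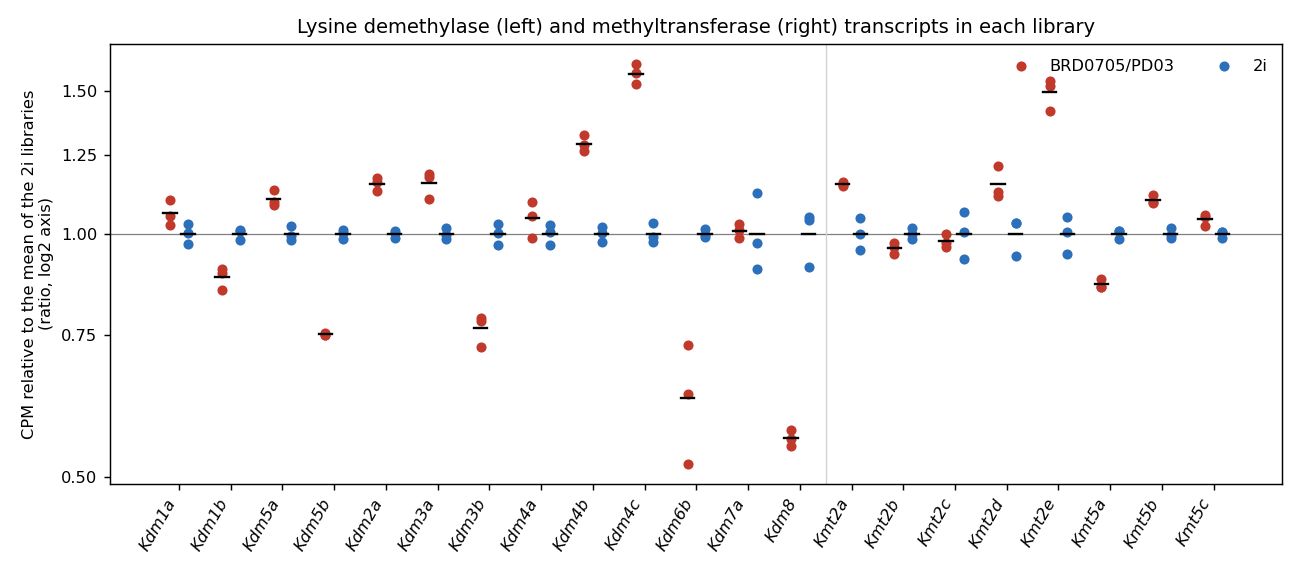
CPM of each tested gene in each library, divided by the mean of its 2i libraries, on a log2 axis, with BRD0705/PD03 points left of 2i points and black bars at group means (n = 3 each). Kdm4c and Kmt2e stand above all their 2i points, Kdm8 and Kdm6b below them, while the points of Kdm7a and Kmt2c overlap.

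Promoter sequences are shown for 3 genes, Kdm4c and Kdm8, which had the largest rise and the largest fall, and Kdm5b, the most abundant of the genes that fell. Each is 300 bases of GRCm38.p6 from RefSeq, 250 before a transcript start and 50 after it, all on the plus strand, and capitals mark matches to the motifs described after them. The Kdm4c window is that of the more downstream of its RefSeq starts, chr4:74251629-74251928, the Kdm8 window is chr7:125444370-125444669 and the Kdm5b window is chr1:134559928-134560227.
Kdm4c: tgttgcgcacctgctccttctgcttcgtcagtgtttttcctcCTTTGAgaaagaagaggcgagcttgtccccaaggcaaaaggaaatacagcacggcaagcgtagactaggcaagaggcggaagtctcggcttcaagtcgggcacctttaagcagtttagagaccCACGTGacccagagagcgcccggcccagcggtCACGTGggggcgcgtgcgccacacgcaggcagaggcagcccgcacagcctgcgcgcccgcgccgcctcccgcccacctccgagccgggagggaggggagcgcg
Kdm8: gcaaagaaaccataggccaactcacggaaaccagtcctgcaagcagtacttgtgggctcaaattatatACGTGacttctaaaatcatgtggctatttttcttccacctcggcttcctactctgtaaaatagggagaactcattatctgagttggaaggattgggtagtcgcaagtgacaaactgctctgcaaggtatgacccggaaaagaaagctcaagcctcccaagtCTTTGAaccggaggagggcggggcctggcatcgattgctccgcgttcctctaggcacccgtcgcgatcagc
Kdm5b: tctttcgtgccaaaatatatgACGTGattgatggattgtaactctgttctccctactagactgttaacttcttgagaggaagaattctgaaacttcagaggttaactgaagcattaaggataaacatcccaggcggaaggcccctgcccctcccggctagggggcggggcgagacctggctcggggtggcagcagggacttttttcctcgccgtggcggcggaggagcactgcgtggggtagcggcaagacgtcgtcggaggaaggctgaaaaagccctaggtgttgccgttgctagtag

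Motifs were searched on both strands: CTTTGA for TCF/LEF factors, ACGTG for the core of the hypoxia response element, TTCNNNGAA for STAT factors and TTTCCCGC for E2F, with the E-box CACGTG added after the sequences had been seen. The printed Kdm4c window holds CACGTG beginning 85 and 53 bases before the start, and CTTTGA 208 bases before the start. Each CACGTG also matches ACGTG on both strands. The other Kdm4c window, chr4:74242247-74242546, lies at the start of the annotated gene and holds no match to any of these motifs. Its GC content is 40% and it has 0 CpG dinucleotides. The Kdm8 window holds CTTTGA 21 bases and ACGTG 182 bases before the start, and the Kdm5b window holds ACGTG 229 bases before the start. The promoter table held 21 windows for 15 of the 24 genes. Of these 21 windows 3 (14.3%) held CTTTGA, 5 (23.8%) held ACGTG and 2 (9.52%) held the STAT motif. The E2F motif was in 1 window (4.76%) and CACGTG in 1 (4.76%), so these shares rest on single sequences. Over all 32851 promoter windows of the same length the shares were 16%, 19.6%, 8.3%, 1.07% and 7.15% in the same order. The windows of these genes had a median GC content of 61.3% and a median of 24 CpG dinucleotides, against 52.7% GC and 7 CpG over all windows. All windows were taken whether or not their genes passed the filter on low counts, and no narrower comparison was made. A match is a description of the letters and not a site of binding.

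Demethylases of H3 K4 split, with Kdm5a higher, Kdm5b and Kdm1b lower and Kdm1a not called. Kdm1a (LSD1), the catalytic subunit of the CoREST repressor complex, was the most abundant of the 21 genes per length in both media. It stood at 335, 359 and 343 CPM in BRD0705/PD03 and at 327, 336 and 317 CPM in 2i, and the groups overlapped (0.08 ± 0.04, adjusted p = 0.0886). It passed as higher under 5 of 15 alternatives, among them leaving out BRD0705/PD03 replicate 1 (adjusted p = 0.0298) or 2i replicate 2 (adjusted p = 0.0135).

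Kdm1b (LSD2), a paralog of Kdm1a known for its part in resetting methylation in oocytes, stood at 25.1, 26.7 and 26.3 CPM in BRD0705/PD03 against 29.8, 28.9 and 29.7 CPM in 2i. Its groups did not overlap, and the change was -0.18 ± 0.06 (adjusted p = 0.00993), but the call was lost with DESeq2 (adjusted p = 0.0525), upper-quartile factors (0.0712), no filter (0.0568) and libraries thinned to the same total count (0.0842). A stretch of 498 of its 4987 exon bases overlaps exons of Dek on the opposite strand. Dek moved the other way, at 356 ± 19.4 CPM in BRD0705/PD03 against 310 ± 9.78 CPM in 2i, and since no source used here says whether counting used the strand, reads of the shared stretch cannot be assigned with certainty.

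The JmjC enzymes Kdm5a and Kdm5b, which remove dimethyl and trimethyl marks from K4, moved in opposite directions. Kdm5a stood at 188, 194 and 186 CPM in BRD0705/PD03 and at 175, 169 and 171 CPM in 2i (0.14 ± 0.04, adjusted p = 0.00337). Kdm5b, the more abundant of the pair per length, stood at 469.8, 472 and 469.2 CPM in BRD0705/PD03 and at 618, 633 and 627 CPM in 2i. The Kdm5b libraries of one medium lay close together, with coefficients of variation of 0.329% in BRD0705/PD03 and 1.24% in 2i, and the gap between media was far wider (-0.41 ± 0.04, adjusted p = 1.8e-08). Summed over Kdm1a, Kdm1b, Kdm5a and Kdm5b, the level per kilobase of exon was 186 ± 4.64 in BRD0705/PD03 and 196 ± 3.23 in 2i (CPM per kilobase, SD, n = 3 each).

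Among demethylases of K9 and K36, Kdm2a, Kdm3a, Kdm4b and Kdm4c were higher in BRD0705/PD03, Kdm3b was lower and Kdm4a was not called. Kdm2a, which binds CpG islands and removes dimethyl marks from K36, stood at 101, 103 and 98.8 CPM in BRD0705/PD03 and at 87.8, 86.5 and 88.3 CPM in 2i (0.21 ± 0.04, adjusted p = 0.000194). Kdm3a, a K9 demethylase known as a target of hypoxia-inducible factor, stood at 228, 243 and 244 CPM in BRD0705/PD03 and at 210, 206 and 203 CPM in 2i (0.21 ± 0.04, adjusted p = 0.000180). Its close relative Kdm3b went the other way, at 137, 148 and 149 CPM in BRD0705/PD03 against 183, 195 and 190 CPM in 2i (-0.39 ± 0.04, adjusted p = 2.5e-07). In each of these genes every BRD0705/PD03 library lay on one side of every 2i library.

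The enzymes of Kdm4a, Kdm4b and Kdm4c remove trimethyl marks from K9 and K36, and Kdm4c (chromosome 4, 74242497 to 74405860 on GRCm38) had the largest rise of the 21. Kdm4c stood at 142, 151 and 147 CPM in BRD0705/PD03 and at 95.8, 90.8 and 92.0 CPM in 2i, a fold of 1.58 (0.66 ± 0.04, adjusted p = 8.2e-11). The lowest BRD0705/PD03 library was thus far above the highest 2i library. Kdm4b stood at 54.1, 52.6 and 51.8 CPM in BRD0705/PD03 and at 41.7, 40.0 and 40.9 CPM in 2i (0.37 ± 0.05, adjusted p = 1.5e-06). Kdm4a did not pass, at 138, 152 and 147 CPM in BRD0705/PD03 and 143, 140 and 135 CPM in 2i (0.06 ± 0.04, adjusted p = 0.230). Without BRD0705/PD03 replicate 1, the lowest library for this gene in that group, Kdm4a was called higher (0.11, adjusted p = 0.0373). The level per kilobase summed over Kdm4a, Kdm4b and Kdm4c was 71.7, 76.3 and 74.1 in BRD0705/PD03 and 59.5, 57.3 and 56.8 in 2i, a ratio of means of 1.28, while that of Kdm3a and Kdm3b together was 68.4 ± 2.74 in BRD0705/PD03 and 68.4 ± 0.598 CPM per kilobase in 2i.

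Kdm4d and Kdm4dl, an unprocessed pseudogene beside it on chromosome 9, did not pass the filter. Kdm4d had 5 counts in each BRD0705/PD03 library and 0, 2 and 1 counts in the 2i libraries, a ratio of 4.58 with a 95% interval of 1.3 to 24.7 that covers counting error only. Kdm4dl had 5 counts over each group, a ratio of 0.916 (0.211 to 3.98), so no difference was detectable at this depth. Reads of such near copies may be divided between them by the counting.

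Kdm6b and Kdm8, the least abundant of the 21 genes, were both lower in BRD0705/PD03. Kdm6b (JMJD3), which removes trimethyl marks from K27, stood at 8.44, 6.03 and 7.36 CPM in BRD0705/PD03 against 11.8, 11.6 and 11.5 CPM in 2i (-0.66 ± 0.11, adjusted p = 2.1e-05). The BRD0705/PD03 libraries were spread widely, with a coefficient of variation of 16.6%, but all lay below the 2i libraries, on 166 to 579 counts. Its antisense RNA Kdm6bos was below the filter at 24 counts over BRD0705/PD03 and 17 over 2i, a ratio of 1.29 (0.666 to 2.57), and 286 bases of its exons overlap those of Kdm6b. Kdm7a, which acts on dimethylated K9 and K27, did not pass at 38.1, 37.2 and 38.7 CPM in BRD0705/PD03 and 34.0, 36.7 and 42.2 CPM in 2i (0.01 ± 0.07, adjusted p = 0.899).

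Kdm8 (JMJD5), a JmjC protein needed for mouse embryo growth whose activity on histones is disputed, had the largest fall. It stood at 3.61, 3.78 and 3.68 CPM in BRD0705/PD03 and at 5.99, 6.92 and 6.87 CPM in 2i, or 1.80 times as high in 2i (-0.85 ± 0.12, adjusted p = 3.8e-06). It rests on 101 to 347 counts per library. Tested against a fold of 1.5 rather than against no change, Kdm8 was the one gene of the 21 still called (adjusted p = 0.0189), with Kdm4c just outside the threshold (adjusted p = 0.0509).

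**Figure D2:**
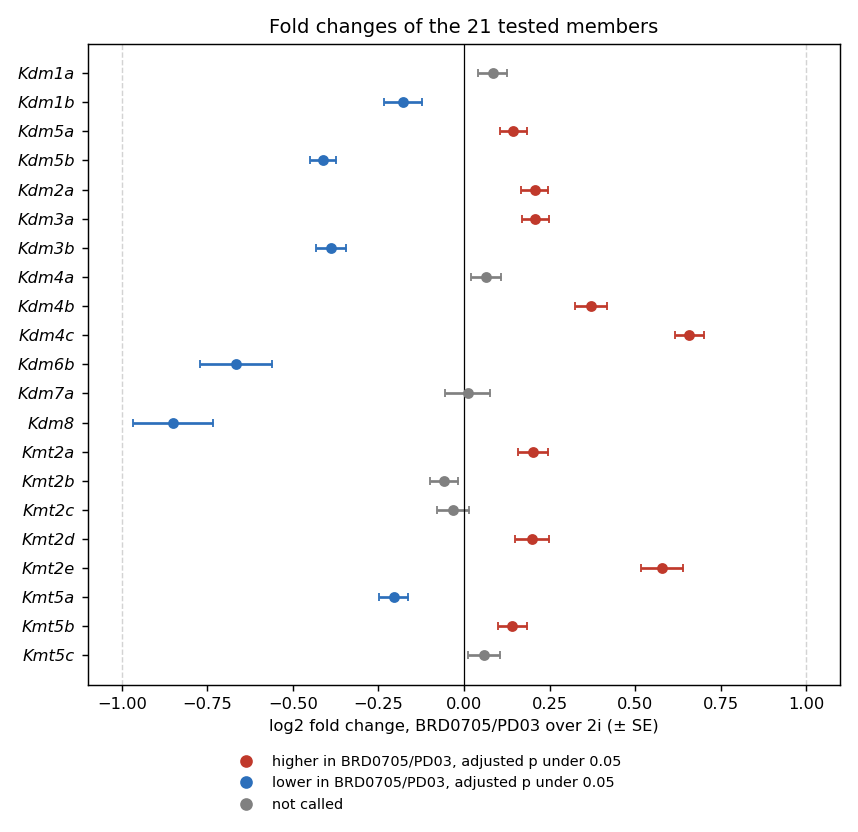
Log2 fold change, BRD0705/PD03 over 2i (points), with standard errors (bars) for the 21 tested genes, in red where called higher, blue where called lower and grey where not called, with dashed lines at a fold of 2. The points run from Kdm8 at -0.85 to Kdm4c at 0.66, and none passes a dashed line.

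Of the K4 methyltransferase family Kmt2, 3 of 5 genes were called higher in BRD0705/PD03, beside 30.1% of all genes tested. None was called lower, beside 31.4% of all genes. With 5 genes these counts are too few to read as a change of the family. Kmt2a (MLL1), which works at promoters of developmental genes, stood at 78.0, 77.6 and 78.7 CPM in BRD0705/PD03 and at 64.7, 67.7 and 71.0 CPM in 2i (0.20 ± 0.04, adjusted p = 0.000656). Kmt2b (MLL2), which acts at poised promoters in mouse ESCs, did not pass, at 73.8, 74.5 and 72.4 CPM in BRD0705/PD03 against 75.4, 76.4 and 77.9 CPM in 2i (-0.06 ± 0.04, adjusted p = 0.238). The groups of Kmt2b did not overlap, although the gap was small.

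Kmt2c (MLL3) and Kmt2d (MLL4) place monomethyl marks at enhancers, and only Kmt2d was called. Kmt2d stood at 72.7, 66.8 and 67.5 CPM in BRD0705/PD03 and at 56.1, 61.7 and 61.8 CPM in 2i (0.20 ± 0.05, adjusted p = 0.00204). Kmt2c stood at 142, 140 and 145 CPM in BRD0705/PD03 and at 135, 146 and 154 CPM in 2i, with BRD0705/PD03 inside the range of 2i (-0.03 ± 0.05, adjusted p = 0.570). Kmt2e (MLL5), a family relative without clear methyltransferase activity, rose most, at 32.2, 30.0 and 32.7 CPM in BRD0705/PD03 against 20.0, 21.2 and 22.2 CPM in 2i (0.58 ± 0.06, adjusted p = 1.4e-07). Exons of Srpk2 overlap 972 of the 7325 exon bases of Kmt2e on the opposite strand, and Srpk2 was also higher, at 83.0 ± 3.49 CPM in BRD0705/PD03 against 67.8 ± 2.64 CPM in 2i.

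Methyltransferases of histone H4 lysine K20 split as well. Kmt5a (SET8), which places the monomethyl mark and is tied to the cell cycle, stood at 60.5, 62.1 and 60.7 CPM in BRD0705/PD03 against 71.0, 69.5 and 71.0 CPM in 2i (-0.21 ± 0.04, adjusted p = 0.000351). Kmt5b, which extends that mark, stood at 67.5, 69.1 and 67.7 CPM in BRD0705/PD03 and at 62.8, 61.0 and 61.6 CPM in 2i (0.14 ± 0.04, adjusted p = 0.00779). Both genes had groups that did not overlap, in opposite directions. Kmt5c, the paralog of Kmt5b known from pericentric heterochromatin, did not pass at 50.0, 49.7 and 48.6 CPM in BRD0705/PD03 and 47.7, 47.8 and 46.9 CPM in 2i (0.06 ± 0.05, adjusted p = 0.283). The groups of Kmt5c did not overlap either, although the gap was small.

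Within a library, the ratio of 2 genes does not depend on how libraries are scaled, so ratios of related enzymes were taken per length, for pairs chosen after their values had been seen and therefore without a test. Kdm5b over Kdm5a was 2.98, 2.89 and 2.99 in BRD0705/PD03 and 4.19, 4.46 and 4.38 in 2i. Kdm3a over Kdm3b was 2.31, 2.28 and 2.28 in BRD0705/PD03 and 1.59, 1.47 and 1.49 in 2i. Kdm4c over Kdm4a was 1.20, 1.15 and 1.16 in BRD0705/PD03 and 0.780, 0.756 and 0.794 in 2i. Per length, Kdm4c was thus above Kdm4a in every BRD0705/PD03 library and below it in every 2i library. That crossing rests on the exon lengths used, 4340 bases for Kdm4c and 5056 for Kdm4a. Before division by length, the BRD0705/PD03 counts were 4609, 4145 and 5975 for Kdm4c and 4463, 4198 and 5975 for Kdm4a. Kmt5a over Kmt5b was 2.74, 2.74 and 2.73 in BRD0705/PD03 and 3.45, 3.47 and 3.51 in 2i.

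**Figure D3:**
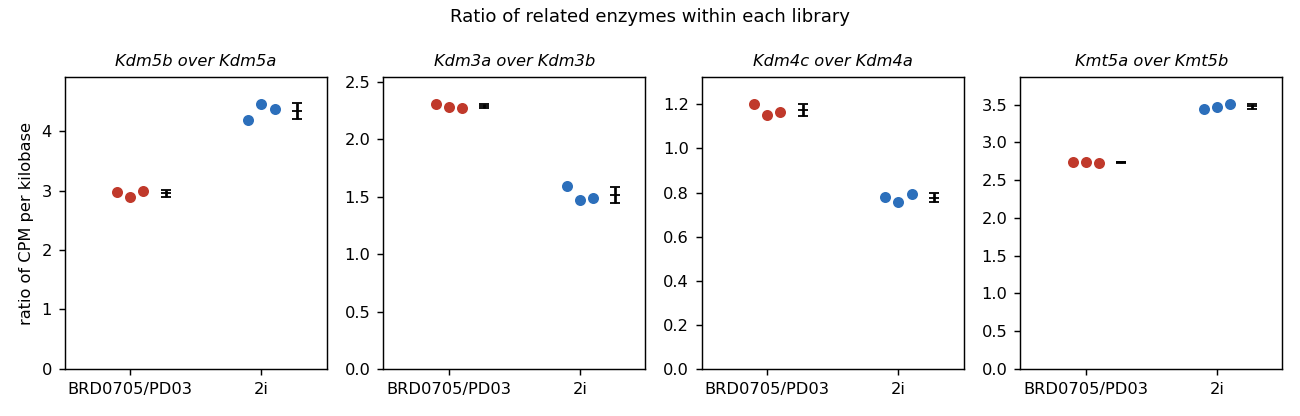
Ratio of CPM per kilobase of exon of 4 pairs of related genes in each library (points), with the mean and SD of each group beside them (n = 3), BRD0705/PD03 left of 2i. The groups of each pair lie apart, with Kdm4c over Kdm4a at 1.17 ± 0.03 in BRD0705/PD03 and 0.777 ± 0.019 in 2i.

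By level per kilobase of exon, the order of the 21 genes was alike in the media. Kdm1a came first at 113 ± 4.0 in BRD0705/PD03 and 106 ± 3.08 CPM per kilobase in 2i, Kdm5b next at 51.1 ± 0.168 in BRD0705/PD03 and 68.1 ± 0.845 in 2i, and then Kdm3a at 47.6 ± 1.79 in BRD0705/PD03 and 41.2 ± 0.649 in 2i. Kdm4c held rank 4 in BRD0705/PD03 at 33.7 ± 0.982 and rank 7 in 2i at 21.4 ± 0.599. Kdm4a and Kdm3b, at ranks 4 and 5 in 2i with 27.5 ± 0.807 and 27.2 ± 0.84, did not differ there beyond their spread. The lowest in both media were Kdm8, at 1.54 ± 0.036 in BRD0705/PD03 and 2.76 ± 0.218 in 2i, and Kdm6b, at 1.09 ± 0.182 in BRD0705/PD03 and 1.74 ± 0.0208 in 2i. The sum over the 21 genes was 422 ± 8.88 in BRD0705/PD03 and 416 ± 3.04 CPM per kilobase in 2i, of which methyltransferases held 76.1 ± 0.29 in BRD0705/PD03 and 75.9 ± 1.07 in 2i.

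Partners of these enzymes included single genes with larger changes, and those named had the largest changes or the smallest p of their list. Over all genes tested, 30.1% were higher and 31.4% lower, with a median absolute log2 fold change of 0.40. Of 15 subunits of the COMPASS complexes, in which Kmt2 enzymes work, 5 were higher and 6 lower (median -0.07, median absolute value 0.26). Among these 15, 2 were called and lower by a fold of 2 or more, beside 21.2% of all genes called and changed that far in either direction. Wdr5, a core subunit that holds the complex together, stood at 209, 224 and 216 CPM in BRD0705/PD03 against 442.4, 441.9 and 433.9 CPM in 2i (-1.02 ± 0.04, adjusted p = 6.8e-14). Ash2l, another core subunit, fell by 0.34 on the log2 scale, and Ncoa6, a subunit of the Kmt2c and Kmt2d complexes, fell to 14.7 ± 0.979 CPM in BRD0705/PD03, against 30.6 ± 2.64 CPM in 2i. Psip1, a chromatin tether of Kmt2a, rose to 361 ± 11.5 CPM in BRD0705/PD03, against 217 ± 4.75 CPM in 2i (0.73 ± 0.04).

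Of 12 subunits of Kdm1a and Kdm1b complexes, 4 were higher and 6 lower (median -0.09, median absolute value 0.29). Rcor1, a scaffold of the CoREST complex, stood at 24.0, 26.9 and 28.4 CPM in BRD0705/PD03 against 52.4, 54.3 and 52.4 CPM in 2i (-1.01 ± 0.06, adjusted p = 3.1e-11), while Kdm1a itself was not called. Its relative Rcor2 was more abundant and fell less, at 121 ± 1.64 CPM in BRD0705/PD03 against 156 ± 7.38 CPM in 2i (-0.37 ± 0.04). Rcor3 fell by 0.26 on the log2 scale. The deacetylase gene Hdac2 fell by 0.57 on the log2 scale and the X-linked Zmym3 by 1.43. Phf21a, a reader of unmethylated K4 in the same complex, was higher at 28.0 ± 0.66 CPM in BRD0705/PD03 against 14.2 ± 1.21 CPM in 2i (0.97 ± 0.07).

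Among 25 other lysine methyltransferase genes, 10 were higher and 8 lower (median 0.08, median absolute value 0.29). Smyd1, known from heart and skeletal muscle, fell to 0.904 ± 0.132 CPM in BRD0705/PD03, against 8.42 ± 0.0672 CPM in 2i (-3.23 ± 0.15). Prdm16, a PR domain factor known from brown fat, stood at 2.49 ± 0.137 CPM in BRD0705/PD03 against 9.06 ± 0.922 CPM in 2i (-1.88 ± 0.12). Its relative Mecom, known from blood stem cells, was higher, at 2.40 ± 0.536 CPM in BRD0705/PD03 against 0.535 ± 0.0169 CPM in 2i. The 2i value of Mecom rests on 9, 26 and 14 counts. Setd7, which places monomethyl marks on K4 and on other proteins, was also higher, at 35.1 ± 0.951 CPM in BRD0705/PD03 against 17.4 ± 0.632 CPM in 2i. The K9 enzymes Ehmt1 and Ehmt2, which work as a pair and were named after their values were seen, were both higher. Ehmt1 rose by 0.47 ± 0.04 on the log2 scale, and Ehmt2 stood at 158 ± 3.23 CPM in BRD0705/PD03 against 114 ± 0.556 CPM in 2i (0.48 ± 0.04).

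Of 15 other genes of JmjC proteins, 7 were higher and 4 lower (median 0.03, median absolute value 0.38). Beside the Y-linked Uty, the K9 demethylase gene Phf2 stood at 6.45 ± 1.16 CPM in BRD0705/PD03 against 13.7 ± 1.28 CPM in 2i (-1.08 ± 0.12). Its X-linked relative Phf8 stood at 41.1 ± 1.45 CPM in BRD0705/PD03 against 67.6 ± 0.646 CPM in 2i (-0.72 ± 0.05). Riox2, a JmjC hydroxylase of ribosomal proteins, rose by 0.76 ± 0.05 on the log2 scale. Jmjd1c, a further relative of Kdm3a and Kdm3b, stood at 270 ± 6.09 CPM in BRD0705/PD03 against 196 ± 1.91 CPM in 2i (0.46 ± 0.04). Jmjd1c thus rose, as did Kdm3a and unlike Kdm3b.

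Genes of the methyl donor cycle and of 2-oxoglutarate metabolism numbered 7 higher and 9 lower of 20 tested (median -0.03, median absolute value 0.40). Mat1a, a liver enzyme, was below the filter. Mat2a and Mat2b of the same list, named after their values were seen, were both higher. Mat2a stood at 406 ± 9.42 CPM in BRD0705/PD03 against 301 ± 7.45 CPM in 2i (0.43 ± 0.04). Mat2b stood at 143 ± 4.68 CPM in BRD0705/PD03 against 108 ± 4.88 CPM in 2i (0.40 ± 0.04). Ahcy, which clears the S-adenosylhomocysteine left by every methylation step, stood at 110, 112 and 99.6 CPM in BRD0705/PD03 against 279, 301 and 300.1 CPM in 2i (-1.46 ± 0.05, adjusted p = 1.3e-14). Bhmt, a homocysteine methyltransferase gene, stood at 0.108 ± 0.0417 CPM in BRD0705/PD03 against 7.75 ± 0.514 CPM in 2i (-6.09 ± 0.23). The BRD0705/PD03 value of Bhmt rests on 5, 2 and 4 counts, so the size of its fall is uncertain. With libraries thinned to equal totals it was -6.84. Idh1, a source of cytosolic 2-oxoglutarate, fell by 0.86 and the X-linked Idh3g by 1.19 on the log2 scale.

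**Figure D4:**
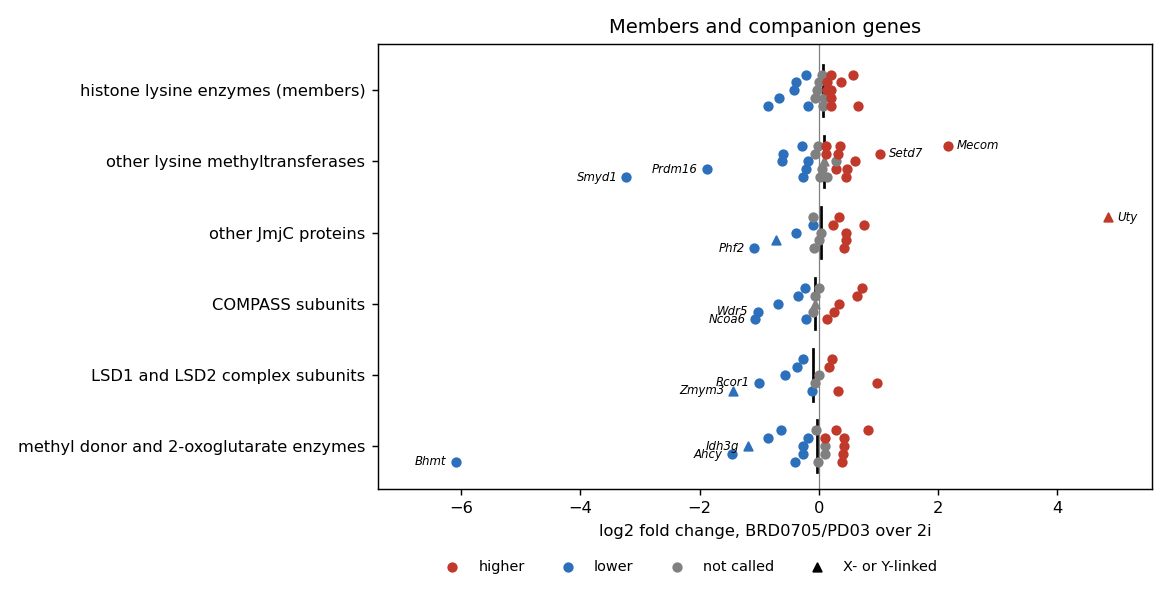
Log2 fold change, BRD0705/PD03 over 2i, for the 21 tested genes and for the 5 companion lists, 1 point per gene, in red where called higher, blue where called lower and grey where not called, with triangles for sex-linked genes and black lines at list medians. The 21 genes lie between -0.85 and 0.66, and the named points of the companion lists lie beyond -1 or 1.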

How the data were processed

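The authors deposited 1 table per library with a whole number for each of 53927 gene symbols. Per the submitters' processing notes Salmon was used with mm10, so the deposited values were taken as estimated counts rounded to whole numbers. The annotation, the strand setting and Salmon's version were not found in any label. Groups and replicate numbers came from the titles. No label states separate cultures, and the p-values therefore reflect library-to-library spread that may be technical only. No pair of libraries agreed within sampling noise (chi-square per degree of freedom 2.86 to 10.5).

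All genes were fitted with edgeR 4.0.16 in R 4.3.3 (quasi-likelihood test, robust, filterByExpr, TMM), two-sided, with Benjamini-Hochberg adjustment over 20422 genes and a threshold of 0.05. The standard error of a log2 fold change was taken from it and the F statistic. Levels per kilobase used the summed exon length of GENCODE M21 (basic set, GRCm38), matched by symbol. On simulated data the test recovered the direction of changed genes, small changes less often than large ones, and called unchanged genes more often than the threshold aims for. The genes and lists were chosen with earlier results of these data known. All 24 genes are named. Of each companion list, called genes with an absolute log2 fold change of 1 or more are named, and where these were under 4, the called genes with the smallest p up to 4. Promoters are from RefSeq. Alternatives included DESeq2 1.42.0.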

Additional observations from a re-analysis of the deposited data

How the results depend on the processing

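Of 15 alternatives, the test against a fold of 1.5 moved the counts by more than 1.5 times, to 0 higher and 1 lower of these genes and 2498 higher and 2596 lower of all genes. That test asks for a larger change. Under the others, 9 to 12 of these genes were higher and 5 or 6 lower, with all genes at 5483 to 7047 higher and 5492 to 6719 lower. Upper-quartile factors, which shifted the median of all genes by 0.07, called Kdm1a, Kdm4a and Kmt5c higher and turned the uncalled Kmt2b to a log2 fold change of 0.0071 and Kmt2c to 0.033. With 1 library left out, the uncalled Kdm7a ran between -0.041 (without 2i replicate 1) and 0.10 (without 2i replicate 3), and Kmt2c between -0.070 (without 2i replicate 1) and 0.018 (without 2i replicate 3). Kdm1b lost its call under 4 alternatives besides the fold test, and the other 14 called genes kept theirs under each alternative but that test. Leaving out 1 library at a time gave 9 to 11 higher and 6 lower. Same-numbered libraries deviated together at correlations of -0.067 to 0.0924, and libraries of unlike number at -0.183 to 0.170. Of 6 libraries, 2 correlated best with their own number. No pairing by number was thus seen, although with 3 libraries per group a weak pairing could be missed. With the replicate number as a block, 9 of these genes were higher and 6 lower, the same 15 genes, and 6059 of all genes were higher and 6376 lower. DESeq2 called 9 and 5 of these genes and 5483 and 5670 of all genes. Depth limits Kdm4d, Kdm4dl and Kdm6bos, on 0 to 11 counts per library.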
